A study of Mus musculus with 24 samples.

Results

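Ethanol was added to DEHP in 6 of the 24 liver libraries, and these were compared with the 6 libraries of mice given DEHP alone, so that 12 libraries carry the comparison. Members were chosen by the treatment named in the labels and by no measured value. DEHP, di(2-ethylhexyl) phthalate, is a plasticiser that softens plastics. All mice were male C57BL/6 animals weighing 20 to 30 g, dosed by gavage, and the labels give 12 mice per group against 6 libraries per group. The first group received DEHP at 2500 mg/kg body weight together with ethanol at 1 g/kg, and the second received DEHP at 2500 mg/kg. Of the other 12 libraries, 6 came from mice given ethanol alone at 1 g/kg and 6 from mice given 0.5% CMC. Only the titles of the CMC group name this vehicle. The sources used here give no treatment duration, age, collection time, batch or pooling, so that the group and the time of collection cannot be told apart. Nothing states that the libraries of a group came from separate mice, so each p-value is set against variation among these libraries that could be purely technical.

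DEHP and its metabolites act in rodent liver as peroxisome proliferators: they activate the nuclear receptor PPARalpha, which raises the enzymes of peroxisomal and mitochondrial fatty acid oxidation and of omega-hydroxylation. Ethanol is oxidised in hepatocytes to acetaldehyde by alcohol dehydrogenase and by the cytochrome Cyp2e1, and acetaldehyde is oxidised to acetate by aldehyde dehydrogenase. Ethanol can also shift the redox state, lipid synthesis and daily rhythms of the liver.

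Total expected counts lay between 7324793 and 8016662 per library, and 10697 genes with at least 1 FPKM in at least 6 of the 24 libraries were tested. FPKM is the number of fragments scaled to gene length and to library size. Hepatocyte markers were high in all 12 libraries, with a summed level of 38300 to 46200 FPKM on DEHP and 39800 to 45200 FPKM with ethanol added. 3 libraries carried RNA of another tissue. Skeletal muscle markers summed to 6320 FPKM in replicate 6 of DEHP plus ethanol, against 4.61 to 6.2 FPKM in its other 5 libraries and 4.58 to 7.26 FPKM on DEHP alone. The same markers summed to 8630 FPKM in replicate 1 of the vehicle group. Pancreatic acinar markers summed to 801 FPKM in DEHP replicate 6, where all 19 listed genes were above 0, against 16.4 to 28.6 FPKM and 3 to 6 genes in the other 5 DEHP libraries. Neutrophil markers summed to 67.5 FPKM and Kupffer cell and macrophage markers to 653 FPKM in DEHP replicate 1, above the other libraries of that group. In bulk samples such as these, fewer cells of a type and less RNA per cell cannot be told apart.

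**Figure D1:**
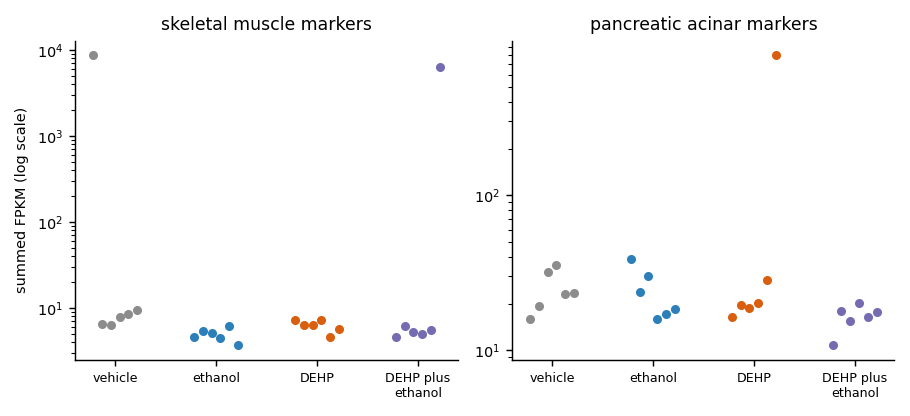
Summed FPKM (log scale) of skeletal muscle markers (left) and pancreatic acinar markers (right), 1 point per library in the 4 groups. The muscle sum stands at 8630 in 1 vehicle library and 6320 in 1 library of DEHP plus ethanol, and the acinar sum at 801 in 1 DEHP library.

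Few genes passed the test when ethanol was added to DEHP. Of the 10697 genes, 13 were called at an adjusted p below 0.05, which is 0.122% of those tested: 5 rose (0.0467%) and 8 fell (0.0748%). Among them were Trp53inp1, a stress gene controlled by p53, which fell, and Gadd45g, a growth arrest and stress gene, which rose. Without adjustment, 1159 genes (10.8%) had a p below 0.05. The median log2 change of all genes was 0.004 and the median absolute log2 change 0.11, with a median standard error of 0.13. Differences of at least 1 log2 unit in either direction were seen for 91 genes. The 95% interval of the change lay within 1 log2 unit of 0 for 9942 genes (92.9%) and within 1.5-fold for 8106 genes (75.8%). FPKM values of the groups did not overlap for 71 genes (0.664%), of which 32 were higher (0.299%) and 39 lower (0.365%) with ethanol. 11 of the 13 called genes were among them.

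The calls did not hold when some single libraries were left out. None of the 10697 genes passed without replicate 1, 2 or 5 of DEHP plus ethanol or without DEHP replicate 2 or 3, where 873, 1006, 1090, 956 and 916 genes had an unadjusted p below 0.05. Counts of 6 and 4 genes were called without DEHP plus ethanol replicate 3 or DEHP replicate 6, and 6 without DEHP replicate 5. Without both replicates 6, the libraries with muscle and pancreatic RNA, 5 genes were called (3 higher, 2 lower), and only Trp53inp1 and Tuba4a of the 13 were among them. DESeq2 called 44 genes (19 higher, 25 lower) and 12 of the 13. Among the scalings, the split of higher to lower was 2 to 8 on TPM, 1 to 4 after quantile normalisation and 1 to 1 with the gene length trend removed.

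Of the 5 genes that rose, Gadd45g changed most. Its protein binds stress kinases and cell cycle regulators. Gadd45g lies at chr13:51846675-51848475 (GRCm38.p6). Its FPKM was 2.72, 3.01 and 4.8 (lowest, median and highest) on DEHP and 7.87, 16.9 and 24.9 with ethanol added. Every library with ethanol thus lay above every library without it, with a mean of 3.32 ± 0.765 (SD, n = 6) against 16.7 ± 7.51 (SD, n = 6). The log2 change was 2.32 ± 0.48 (SE), with an adjusted p of 0.0421. Without both replicates 6 it was 2.22 with an adjusted p of 0.106. In the vehicle group its FPKM was 5.08, 14.6 and 23.5.

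Slc25a25, a mitochondrial carrier that exchanges ATP-Mg for phosphate, lies at chr2:32414487-32451470. Its FPKM was 9.66, 12.4 and 27.2 on DEHP and 17.2, 32.9 and 43.3 with ethanol, a log2 change of 1.21 ± 0.24 (SE; adjusted p = 0.0318). The groups overlapped, since DEHP replicate 4 at 27.2 FPKM stood above replicate 3 of DEHP plus ethanol. Without both replicates 6 the adjusted p was 0.0772. In the vehicle and ethanol groups its median was 43.1 and 49.8 FPKM; the DEHP group had the lowest median of the 4.

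The 250 bases before the annotated starts of these 2 genes are shown because these were the 2 largest rises among the called genes above 1 FPKM and each window holds 1 of 3 motifs searched after the values were seen. The motifs were the E-box CACGTG bound by clock and other bHLH factors, the cAMP response element TGACGTCA, and the D-box TTATGTAA bound by Dbp and its relatives, read on both strands. The Gadd45g window lies on the plus strand, outside GENCODE genes, and the Slc25a25 window lies on the minus strand, within an intron of the longer transcripts and before the most downstream of 3 annotated starts. Sequences are those of RefSeq (GRCm38.p6), at chr13:51846425-51846674 and chr2:32424067-32424316, with the match in capitals.
Gadd45g: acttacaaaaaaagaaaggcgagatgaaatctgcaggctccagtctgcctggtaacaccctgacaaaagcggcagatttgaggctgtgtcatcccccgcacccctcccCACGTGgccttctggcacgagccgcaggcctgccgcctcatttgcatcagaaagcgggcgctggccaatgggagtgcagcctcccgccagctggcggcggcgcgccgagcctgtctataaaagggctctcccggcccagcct
Slc25a25: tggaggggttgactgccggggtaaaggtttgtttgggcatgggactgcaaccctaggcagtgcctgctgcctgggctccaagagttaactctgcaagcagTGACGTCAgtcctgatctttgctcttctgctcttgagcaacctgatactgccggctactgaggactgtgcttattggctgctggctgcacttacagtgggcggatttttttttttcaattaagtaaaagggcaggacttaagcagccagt
The E-box of Gadd45g begins 142 bases before the start, and the response element of Slc25a25 begins 150 bases before it. Of 32851 promoter windows of this length, 6.02% held the E-box, 1.55% the cAMP response element and 0.819% the D-box. Windows were listed for 10 of the 13 called genes, 13 in all, and 2 of these held a match. Windows of the other starts of Slc25a25 held none of these letters.

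Tuba4a, an alpha-tubulin of microtubules, lies at chr1:75214972-75221261. Its FPKM was 96.8, 108 and 131 on DEHP and 137, 147 and 151 with ethanol added. The groups did not overlap, and the log2 change was 0.40 ± 0.08 (SE; adjusted p = 0.0318). Of the 5 genes that rose, it alone was called without both replicates 6, at a log2 change of 0.46 and an adjusted p of 0.0291. Srp9, a subunit of the signal recognition particle that brings ribosomes to the endoplasmic reticulum, had 44.3, 54.4 and 58 FPKM on DEHP and 61.9, 64.2 and 71.1 with ethanol, a log2 change of 0.31 ± 0.06 (SE; adjusted p = 0.0318). Its groups did not overlap either. Wnk4, a kinase that controls ion transport, stayed below 1 FPKM in all 12 libraries, at 0.06, 0.18 and 0.27 FPKM on DEHP and 0.32, 0.47 and 0.56 with ethanol (log2 change 1.40 ± 0.26, adjusted p = 0.0318). It entered the test through the ethanol group, where it had 1.24 to 1.89 FPKM.

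Trp53inp1 was the most regularly called of the 8 genes that fell. Its protein acts in the p53 response and in autophagy. Trp53inp1 lies at chr4:11156441-11174379. Its FPKM was 12.8, 15.2 and 19.4 on DEHP and 8.58, 9.18 and 10.4 with ethanol, with no overlap. The log2 change was -0.72 ± 0.12 (SE), with an adjusted p of 0.0236, and -0.79 with an adjusted p of 0.0291 without both replicates 6. It was called under 35 of 40 alternatives, and the other 5 were the single libraries whose removal ended every call. Without DEHP its fall with ethanol was larger, from a median of 24.4 to 4.58 FPKM (log2 change -2.30 ± 0.13, adjusted p = 1.56e-12). The difference between these 2 changes was 1.58 ± 0.17 log2 units (SE; adjusted p = 3.18e-06).

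Ppp1r10, a regulatory subunit that holds protein phosphatase 1 in the nucleus, had the largest fall, from 10.9, 13.5 and 15.1 FPKM to 3.66, 5.19 and 6.72 (log2 change -1.32 ± 0.27, adjusted p = 0.0499). Its groups did not overlap, but the adjusted p was 0.0784 without both replicates 6 and the call held in 1 of the 12 fits that left out 1 library of either group. Cpeb2, an RNA-binding protein that controls translation, had 9.43, 10.8 and 12.7 FPKM on DEHP and 5.09, 6.44 and 8.53 with ethanol (log2 change -0.70 ± 0.13, adjusted p = 0.0318). Every value with ethanol lay below every value without it. Fbxl20, an F-box protein of a ubiquitin ligase, had 4.56, 5.26 and 5.62 FPKM on DEHP and 3.04, 3.63 and 4.1 with ethanol (log2 change -0.51 ± 0.10, adjusted p = 0.0318).

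The other 4 falls were smaller or less certain in identity. Mug2, a murinoglobulin that traps proteases in plasma, had 126, 133 and 145 FPKM on DEHP and 80.1, 95.3 and 105 with ethanol (log2 change -0.47 ± 0.09). Akap13, a scaffold for protein kinase A, had 4.65, 5.06 and 5.48 FPKM on DEHP and 3.15, 3.61 and 4.04 with ethanol (log2 change -0.47 ± 0.09). Lnx2, a ubiquitin ligase that binds Numb, had 7.06, 7.89 and 8.6 FPKM on DEHP and 5.13, 5.79 and 6.42 with ethanol (log2 change -0.44 ± 0.09). None of these 3 overlapped between the groups, and their adjusted p was 0.0318 each. A transcript listed in the tables without a symbol, NM_001320725, had 1.17, 3.31 and 4.42 FPKM on DEHP and 1.32, 1.52 and 1.74 with ethanol (log2 change -1.04 ± 0.21, adjusted p = 0.0421). DEHP replicate 1, at 1.17 FPKM, lay below all 6 libraries with ethanol while the other 5 DEHP libraries lay above them, and in the RefSeq annotation the transcript overlaps Setdb2. Mug2 has near-identical copies, and the counting could split reads between them. 11 of the 13 genes fall outside the rule for named genes and were described after their values were seen.

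**Figure D2:**
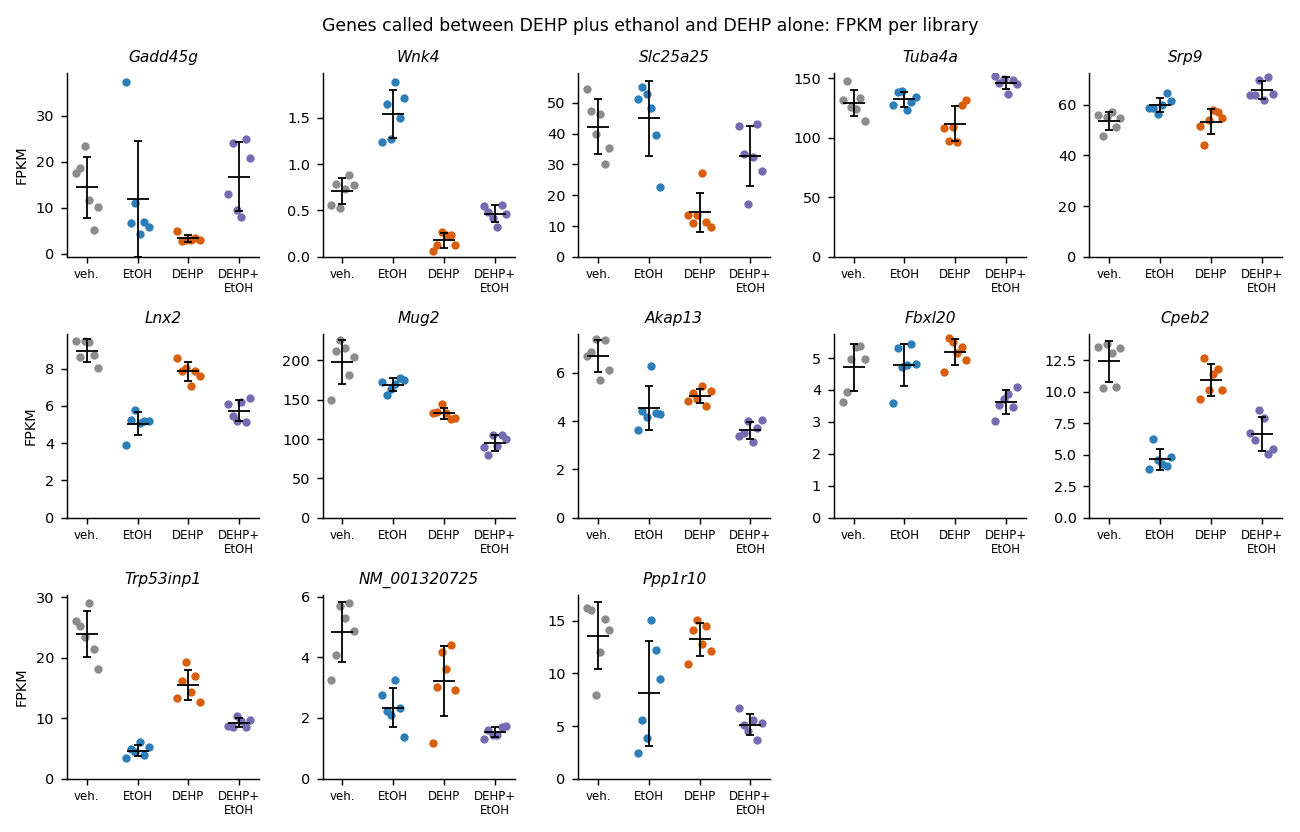
FPKM per library of the 13 genes called between DEHP plus ethanol and DEHP alone, with the vehicle and ethanol groups beside them. Points are libraries and black bars are the mean ± SD of 6. In 11 of the 13 panels the values for DEHP plus ethanol do not overlap those for DEHP.

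Many more genes were called between the ethanol and vehicle groups, both without DEHP, where group and time of collection cannot be told apart either. Against the vehicle, 3079 genes were called (28.8%), 1524 higher (14.2%) and 1555 lower (14.5%), with a median absolute log2 change of 0.23 and the same median standard error of 0.13. A change of at least 1 log2 unit was seen for 375 genes, against 91 on DEHP. The 2 ethanol comparisons share no library, so they can be set against each other, and the difference of the 2 changes (the interaction) was tested gene by gene. It was called for 686 genes (6.41%): the change with ethanol was more positive on DEHP for 355 (3.32%) and more negative for 331 (3.09%). Of these genes, 643 (93.7%) were also called with ethanol alone, and for all 643 the difference ran against the sign of the ethanol change. The interaction contains that change with its sign reversed, so this is largely built into the choice of genes called in both and is given as a description. Of the 305 genes called with ethanol alone at 1 log2 unit or more, 156 were called in the interaction, 14 had a change of that size in the same direction on DEHP, and 4 were called there. These 305 genes were chosen by the size of their change without DEHP, so these counts are also given as a description.

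Genes that rose with ethanol alone had a median log2 change of 0.38 without DEHP and of 0.05 on DEHP, where 66.9% were above 0 (all genes: 51.0%). For genes that fell the medians were -0.54 and -0.08, with 67.3% below 0 on DEHP (all genes: 49.0%). Both sets were chosen by their change without DEHP, so 0.38 and -0.54 are enlarged in size by the choice. The medians on DEHP are not, and these pairs of medians are given as a description. Across genes, the 2 changes had a Pearson r of 0.01 and a Spearman coefficient of 0.21, where genes are not independent replicates. Of the 13 genes called on DEHP, 7 (53.8%) were called in the same direction with ethanol alone, which is 0.227% of the 3079, and 0 in the opposite one. Trp53inp1, Cpeb2, Fbxl20 and Gadd45g were also called in the interaction. Gadd45g was not called there without the 3 libraries with other tissue (adjusted p = 0.0678), and Cpeb2 was called in 27 of 39 alternatives, at adjusted p values up to 0.129.

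Scaling and 3 libraries moved these counts. Without vehicle replicate 1 and both replicates 6, the libraries with muscle or pancreatic RNA, the interaction was called for 365 genes (196 and 169), and 346 of these were among the 686. Of 18 interaction genes that were at least 1 log2 unit higher with ethanol on DEHP and as much lower with ethanol alone, 16 had their highest values of the vehicle and of the DEHP plus ethanol group in the 2 muscle libraries. Only Chrna4, a nicotinic receptor subunit, and Pnpla3, a lipid droplet lipase, of these 18 were called without the 3 libraries. The split of 355 to 331 was 447 to 203 without TMM factors, 439 to 120 on TPM, 275 to 392 after quantile normalisation and 308 to 513 with the gene length trend removed. For ethanol alone the split of 1524 to 1555 was 930 to 2061 without TMM factors, 1090 to 1780 on log2(FPKM + 1), 481 to 2764 on TPM and 1671 to 1022 with the length trend removed. TPM shifted the median of all genes to -0.15 for ethanol alone and to 0.111 for the interaction.

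**Figure D3:**
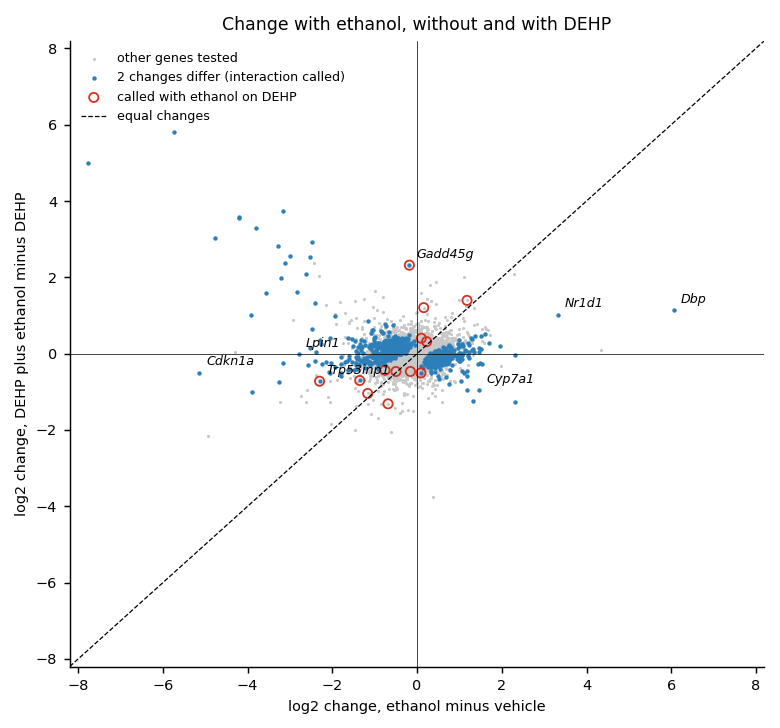
Log2 change with ethanol against the vehicle (x axis) and on DEHP (y axis), 1 point per gene tested. Blue points are the 686 genes whose 2 changes differ, red circles the 13 genes called on DEHP, and the dashed line marks equal changes. Most blue points lie near 0 on the y axis, and those at the upper left are mostly genes highest in the 2 libraries with muscle RNA.

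The listed enzymes that act on ethanol and on fatty acids showed no called change on DEHP, where 0.122% of all genes were called. Adh1, the main hepatic alcohol dehydrogenase, had 1899, 2460.4 and 2737 FPKM on DEHP and 2165, 2601 and 3238 with ethanol, a log2 change of 0.18 (95% interval -0.08 to 0.44). Cyp2e1, the ethanol-oxidising cytochrome, had 3559, 3945 and 4930 FPKM on DEHP and 3323, 3722 and 4322 with ethanol (log2 change -0.08, interval -0.33 to 0.16). With ethanol alone Cyp2e1 rose by 0.42 ± 0.12 log2 units (adjusted p = 0.0102), and the difference of -0.50 was not called by edgeR (adjusted p = 0.0649) but was by DESeq2 (adjusted p = 0.0305). Without vehicle replicate 4 or ethanol replicate 4, edgeR also called this difference of Cyp2e1 (adjusted p = 0.016 and 0.0454). Aldh2, the mitochondrial aldehyde dehydrogenase, had a log2 change of -0.05 (interval -0.24 to 0.14). Of the 15 tested members of the ethanol and aldehyde list, 0 were called on DEHP by edgeR. Of these, 1 had an unadjusted p below 0.05 (all genes: 10.8%), and the median change was -0.05, against 0.004 for all genes. DESeq2 called 0 of them too.

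Targets of PPARalpha were high in both groups with DEHP. Cyp4a14, a fatty acid omega-hydroxylase, had 2130, 3248 and 3888 FPKM on DEHP and 3143, 4130 and 5117 with ethanol, against a vehicle median of 119 FPKM. The log2 change with ethanol was 0.40 (interval -0.36 to 1.15). Cyp4a10 had a change of 0.25 (interval -0.28 to 0.79) and Ehhadh, the peroxisomal bifunctional enzyme, of 0.14 (interval -0.29 to 0.56). Cd36, a fatty acid transporter, had a change of -0.07 (interval -0.53 to 0.38). The interval of Cyp4a14 held changes beyond 1 log2 unit. Among the 33 peroxisomal and omega oxidation genes, 0 were called on DEHP by edgeR or DESeq2, against 0.122% of all genes by edgeR. Of these, 2 had an unadjusted p below 0.05 (all genes: 10.8%), and the median change was 0.10 with 27 above 0 (all genes: 51.0%). Of 28 genes of mitochondrial oxidation and ketogenesis, 0 were called by edgeR and 6 had an unadjusted p below 0.05. Their median change was 0.15 with 27 above 0. Members of the Cyp4a family are alike in sequence, and reads could be split among them.

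**Figure D4:**
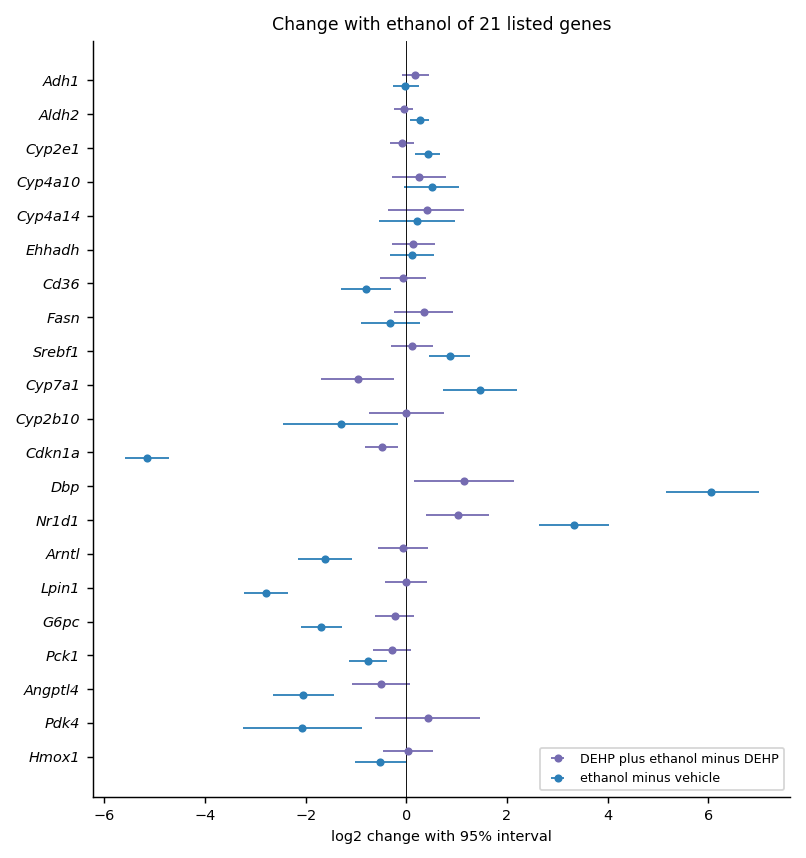
Log2 change with ethanol and its 95% interval for 21 genes of ethanol metabolism, lipid metabolism, the clock, fasting and stress, on DEHP (purple) and without it (blue). The intervals of the 2 changes lie apart for several of these genes, among them Cdkn1a, Dbp, Nr1d1, Lpin1, G6pc and Cyp7a1.

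The interaction with the smallest adjusted p among the named genes was that of Cdkn1a, the cell cycle inhibitor p21 and a p53 target. On DEHP its FPKM was 20.7, 35.2 and 36.8, and with ethanol added it was 16.8, 24.3 and 26. The groups overlapped through DEHP replicate 4, the lowest of its group, and the log2 change of -0.49 ± 0.16 was not called (adjusted p = 0.284). With ethanol alone Cdkn1a fell from a median of 50 FPKM to 1.29 FPKM, by 5.15 ± 0.21 log2 units (adjusted p = 4.76e-15). The 2 changes differed by 4.65 ± 0.27 (SE; adjusted p = 1.36e-11), and under all 39 alternatives this difference was called, at 4.0 to 4.83. Of the 13 tested p53 targets, 1 was called on DEHP (Trp53inp1) and 7 with ethanol alone (2 higher, 5 lower), where 0.122% and 28.8% of all genes were called. Cdkn1a and Trp53inp1 were the 2 called in the interaction (all genes: 6.41%).

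Clock genes also changed with ethanol alone more than on DEHP. Dbp, an output transcription factor of the clock, had 0.65, 1.53 and 1.94 FPKM on DEHP and 1.21, 1.54 and 6.88 with ethanol, where replicate 3 alone stood above 2.22 FPKM. This change of 1.14 ± 0.48 was not called (adjusted p = 0.392). Without DEHP the median went from 0.66 to 46.3 FPKM (log2 change 6.06 ± 0.45, adjusted p = 1.05e-09), and the difference was -4.92 ± 0.70 (adjusted p = 0.000131). Its relative Tef had 6.39, 8.88 and 10 FPKM on DEHP and 8.31, 8.97 and 14.7 with ethanol, with a difference of -1.77 ± 0.24 from the change without DEHP (adjusted p = 7.17e-05). Replicate 3 of DEHP plus ethanol was the highest library for Dbp and for Tef.

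Nr1d1, a repressor that closes a feedback loop of the clock, had 3.4, 20 and 24.2 FPKM on DEHP and 20.9, 30.7 and 52.2 with ethanol. The log2 change of 1.02 ± 0.31 was not called (adjusted p = 0.22), and it was smaller than the 3.32 ± 0.34 without DEHP by 2.30 ± 0.44 in size (log2 difference -2.30, adjusted p = 0.00279). Arntl, which encodes the clock activator BMAL1, had 7.53, 9.2 and 13.5 FPKM on DEHP and 5.98, 9.57 and 11 with ethanol. Npas2, a partner of Arntl, had 1.69, 2.61 and 3.44 FPKM and 1.05, 2.21 and 2.64 FPKM. Without DEHP both fell, Arntl by 1.62 ± 0.26 and Npas2 by 3.16 ± 0.32 log2 units, and the differences were 1.55 ± 0.35 (adjusted p = 0.00917) and 2.91 ± 0.41 (adjusted p = 0.000131). Of 5 clock activators, 0 were called on DEHP by edgeR or DESeq2 (1 at an unadjusted p below 0.05), 5 fell with ethanol alone, and 4 were called in the interaction, Rora with a difference of 0.96 among them. Of 8 clock outputs, 0 were called on DEHP by edgeR or DESeq2 (1 at an unadjusted p below 0.05). With ethanol alone 5 of them rose, and 4 were called in the interaction, Wee1 with a difference of -1.74 among them. Over all genes, 14.5% fell and 14.2% rose with ethanol alone, and 6.41% were called in the interaction. Repressors were mixed: of 8, Nfil3 and Cry1 had a positive and Nr1d1 and Cry2 a negative called difference. The collection times of the groups are not known, so treatment and time of day cannot be told apart for these genes.

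The median changes of the chaperone lists lay above 0 on DEHP and below 0 with ethanol alone, and the difference was called for some of their genes. Hspa5, the main chaperone of the endoplasmic reticulum, had 273, 358 and 553 FPKM on DEHP and 360, 582 and 726 with ethanol. The groups overlapped, through replicate 6 of DEHP plus ethanol at 360 FPKM and DEHP replicate 5 at 553 FPKM, and the log2 change was 0.57 ± 0.20 (interval 0.16 to 0.97, adjusted p = 0.311). With ethanol alone Hspa5 fell by 0.83 ± 0.20 log2 units (adjusted p = 0.00362), a difference of 1.40 ± 0.28 (adjusted p = 0.00411). The vehicle group was split for Hspa5, at 617, 624 and 465 FPKM in replicates 1 to 3 and 287, 344 and 322 in replicates 4 to 6. The ethanol group had 174 to 300 FPKM, near vehicle replicates 4 to 6. Manf, a secreted protein of the same organelle, had 33, 49.4 and 84.9 FPKM on DEHP and 47.1, 93.4 and 124 with ethanol (log2 change 0.77 ± 0.24, adjusted p = 0.256). Its difference was 1.53 ± 0.34 (adjusted p = 0.00883), and that of Hyou1, a further chaperone, was 1.34 ± 0.33 (adjusted p = 0.0168). Vehicle replicates 1 to 3 stood above replicates 4 to 6 for both, at 63 to 83.8 against 32.4 to 42.7 FPKM for Manf. For Hyou1 they had 66.2 to 98.7 against 31.4 to 47.6 FPKM. The ethanol group had 23.6 to 45.4 FPKM of Manf and 27.5 to 43.2 of Hyou1.

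Among the 18 genes of this list, 0 were called on DEHP by edgeR or DESeq2. Of these, 12 had an unadjusted p below 0.05 (all genes: 10.8%), 17 were above 0 (all genes: 51.0%) and the median change was 0.32. With ethanol alone 7 fell (all genes: 14.5%) and the median was -0.30. The interaction was called for 8 (all genes: 6.41%), all more positive on DEHP, and for 5 without the 3 libraries with other tissue. On TPM it was called for 12. The heat shock list, with chaperones of the cytosol and of mitochondria, had a median of 0.19 on DEHP, and 13 of 14 genes were above 0. On DEHP 0 of 14 were called by edgeR or DESeq2 (3 at an unadjusted p below 0.05). With ethanol alone the median was -0.47, and 7 were lower (all genes: 14.5%). The interaction was called for 7 of the 14 (all genes: 6.41%). Hsph1 had 9.83, 13.4 and 19.8 FPKM on DEHP and 14.2, 20.8 and 23 with ethanol, and its difference of 1.63 ± 0.28 had an adjusted p of 0.00114. Hspa8, the constitutive member, had 344, 445 and 501 FPKM on DEHP and 463, 564 and 670 with ethanol (log2 change 0.41 ± 0.13, adjusted p = 0.256). Hspa1b, whose reads its close copy Hspa1a can share, had a change of 0.02 on DEHP and of -1.28 without it.

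Most genes of the fasting and glucocorticoid lists fell with ethanol alone, and for some of them the change differed on DEHP. Lpin1, a phosphatidate phosphatase and coactivator induced by fasting, had 25.2, 27.8 and 32.6 FPKM on DEHP and 19.3, 27 and 37.8 with ethanol. Its change was -0.01 (interval -0.42 to 0.40), against -2.79 ± 0.21 without DEHP, a difference of 2.78 ± 0.29 (adjusted p = 1.74e-06). The vehicle group had 52 to 94.2 FPKM of Lpin1, above every DEHP library, so the 2 changes with ethanol started from different levels. Lpin2 had a difference of 1.02 ± 0.19, and its vehicle (60.9 to 82.2 FPKM) and DEHP (51.8 to 62.3 FPKM) groups overlapped. G6pc, the last enzyme of glucose release, had 78.5, 97 and 131 FPKM on DEHP and 58.9, 88.4 and 111 with ethanol, and a difference of 1.47 ± 0.27 (adjusted p = 0.0019). The vehicle group had 145 to 241 FPKM of G6pc, also above every DEHP library. Pck1, an early enzyme of gluconeogenesis, had a change of -0.28 (interval -0.66 to 0.10), and its difference of 0.49 was not called (adjusted p = 0.268).

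Angptl4, an inhibitor of lipoprotein lipase, had a change of -0.51 (interval -1.09 to 0.08) and a difference of 1.55 ± 0.41 (adjusted p = 0.0229). It had 59.9 to 127 FPKM in the vehicle group and 32.3 to 69.1 FPKM on DEHP. The difference of Pdk4, a kinase that curbs pyruvate oxidation, was 2.49 (adjusted p = 0.0496) and 1.06 (adjusted p = 0.215) without the 3 libraries with other tissue. Its vehicle group ranged from 2.28 to 34.7 FPKM, the highest being the library with muscle RNA. Of the 20 fasting genes, 0 were called on DEHP by edgeR, with 4 at an unadjusted p below 0.05. With ethanol alone 16 were called (3 higher, 13 lower), and 7 in the interaction, all more positive on DEHP. Over all genes these 4 shares were 0.122%, 10.8%, 28.8% and 6.41%. DESeq2 called 1 of the 20 on DEHP.

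Among 10 glucocorticoid targets and metallothioneins the median change was -0.38 on DEHP and -1.0 without it. 0 were called on DEHP by edgeR or DESeq2 (4 at an unadjusted p below 0.05), 8 fell with ethanol alone, and 6 were called in the interaction. Over all genes, 10.8% had such a p on DEHP, 14.5% fell with ethanol alone and 6.41% were called in the interaction. Zbtb16, a transcription factor induced by glucocorticoids, had 7.35, 12.5 and 14.8 FPKM on DEHP and 5.47, 7.05 and 9.95 with ethanol (log2 change -0.73 ± 0.29, adjusted p = 0.366). Without DEHP it fell by 3.26 ± 0.34, a difference of 2.53 ± 0.44 (adjusted p = 0.00132). Sgk1, a kinase of the same response, had a difference of 1.43 ± 0.24 and Tat, tyrosine aminotransferase, of 0.92 ± 0.18. In the vehicle group Sgk1 had 7.85 to 12.1 FPKM, against 3.77 to 5.47 on DEHP. Tat had 963 to 1544 FPKM in the vehicle group, against 751 to 905 on DEHP. For Zbtb16 the vehicle group (9 to 17 FPKM) overlapped the DEHP group. In the urea cycle and amino acid list the interaction also held for Slc25a15 at 0.44, the ornithine carrier, and for Nags at -0.40, which makes the activator of the cycle. Nags was not called without the 3 libraries (adjusted p = 0.135).

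Cyp7a1, which sets the rate of bile acid formation from cholesterol, had opposite signs in the 2 backgrounds. Its FPKM was 13.5, 28.7 and 43.9 on DEHP and 5.75, 13.8 and 22 with ethanol. The groups overlapped, and the log2 change of -0.97 ± 0.35 (interval -1.69 to -0.24) had an adjusted p of 0.326. Without DEHP it rose by 1.46 ± 0.35 (adjusted p = 0.00389), and the difference of -2.43 ± 0.50 had an adjusted p of 0.00459 and was called under all 39 alternatives. Of 25 bile acid genes, 0 were called on DEHP by edgeR or DESeq2, with 2 at an unadjusted p below 0.05 (all genes: 10.8%). The interaction was called for 4 (all genes: 6.41%), all more negative on DEHP. Among them were Nr1h4, the bile acid receptor FXR, at -0.54 ± 0.14 and Klb, a co-receptor for Fgf15 signals, at -0.74 ± 0.19. On TPM 1 gene of the list was called, and the differences of Nr1h4 and Klb were not.

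Of 29 genes of lipid uptake and droplets, 17 were above 0 on DEHP (all genes: 51.0%) with a median change of 0.12. By edgeR 0 were called (6 at an unadjusted p below 0.05, all genes: 10.8%), and DESeq2 called 1, Plin2. Fasn, fatty acid synthase, had 88.5, 154 and 205 FPKM on DEHP and 129, 186 and 239 with ethanol (log2 change 0.34, interval -0.25 to 0.92). Srebf1, the transcription factor of lipid synthesis, had a change of 0.11 (interval -0.30 to 0.52). Plin2, the coat protein of hepatocyte lipid droplets, had 254, 283 and 362 FPKM on DEHP and 334, 366 and 438 with ethanol, a log2 change of 0.37 ± 0.10 (edgeR adjusted p = 0.165, DESeq2 adjusted p = 0.0444). Without DEHP replicate 1 the edgeR adjusted p of Plin2 was 0.0446. Only the highest DEHP library overlapped the ethanol group. With ethanol alone Plin2 fell by 0.48 ± 0.10, and the difference of 0.84 ± 0.14 was called (adjusted p = 0.000649).

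Pnpla3 had 0.09, 0.33 and 0.64 FPKM on DEHP and 0.54, 1.66 and 2.27 with ethanol, and a difference of 4.70 ± 0.87 (adjusted p = 0.00179). All 6 DEHP libraries lay below 1 FPKM, and Pnpla3 entered the test through 4 libraries of DEHP plus ethanol and 2 of the vehicle, the groups whose high values make this difference positive, so that its size is given as a description. Chrna4 had 2.73, 6.17 and 11.1 FPKM on DEHP and 5.16, 10.5 and 34.7 with ethanol. Its log2 change on DEHP of 1.32 was not called (adjusted p = 0.356), and its difference was 3.72 (adjusted p = 0.00601). Vehicle replicates 2 and 3 had 11.5 and 10.7 FPKM of Chrna4, while the other vehicle libraries had 1.07 to 1.71 and the ethanol group 0.51 to 1.36. Lipe, hormone-sensitive lipase, differed by -0.80 ± 0.18 (adjusted p = 0.00883). Of 29 genes of fatty acid and triglyceride synthesis, 0 were called on DEHP by edgeR or DESeq2 (5 at an unadjusted p below 0.05). Of them, 24 were above 0 with a median of 0.11, and 7 were called in the interaction (6 more positive, 1 more negative). Over all genes, 10.8% had such a p, 51.0% were above 0 and 6.41% were called in the interaction.

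Over all 35 function lists, 645 members were tested. On DEHP edgeR called 2, Trp53inp1 and Gadd45g, and 33 lists held no call; DESeq2 made a call in 8 of the 35 lists. With ethanol alone 238 of these members (36.9%, against 28.8% of all genes) were called, and 80 in the interaction (12.4%, against 6.41% of all genes), or 60 without the 3 libraries with other tissue. 37 of 37 ribosomal protein genes and 30 of 31 proteasome genes were above 0 on DEHP (all genes: 51.0%), with medians of 0.15 and 0.19. Of them, 15 and 18 had an unadjusted p below 0.05 (all genes: 10.8%). With the gene length trend removed the medians were 0.08 and 0.13. Pericentral genes had a median of -0.13 with 1 of 14 above 0, and cell cycle genes of -0.43 with 2 of 14 above 0. Hmox1, the stress-induced heme oxygenase, had a change of 0.03 (interval -0.47 to 0.53), and Cyp2b10, a target of the receptor CAR, of 0.00 (interval -0.74 to 0.75).

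**Figure D5:**
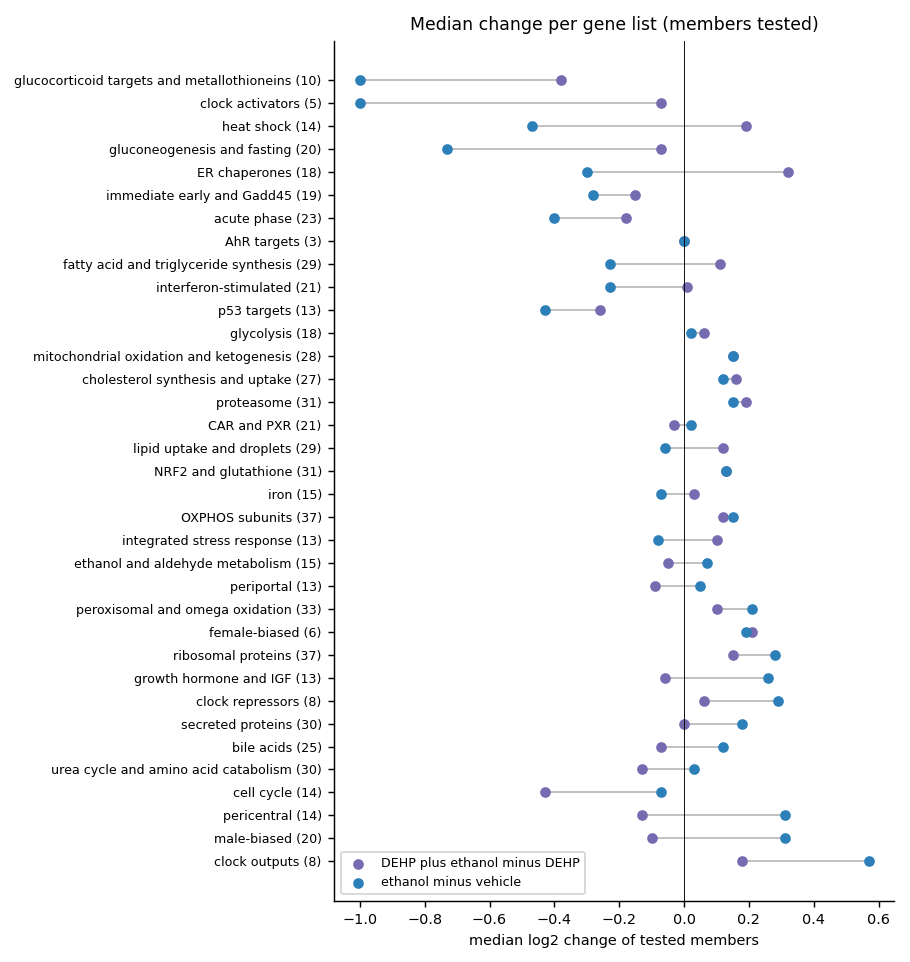
Median log2 change of the tested members of 35 gene lists with ethanol, on DEHP (purple) and without it (blue); the number of members tested is in brackets. The medians for ER chaperones are 0.32 and -0.30, and those for clock activators -0.07 and -1.0.

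Among the genes with the smallest interaction p, Gpr146, an orphan receptor linked to plasma lipids, had 13.8, 16.6 and 19.3 FPKM on DEHP and 16, 17.5 and 19.4 with ethanol. Without DEHP it rose by 1.29 ± 0.08, a difference of -1.20 ± 0.11 (adjusted p = 5.71e-07). Ppard, a nuclear receptor related to PPARalpha, had a change of 0.15 (interval -0.28 to 0.58) and a difference of 2.68 ± 0.31 (adjusted p = 1.07e-05). Without DEHP, Ppard fell by 2.53 ± 0.23 log2 units.

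Some genes varied widely among libraries of 1 group. The leading principal component of the 12 libraries held 22.3% of the variance and did not separate the groups, and Mup genes, Hsd3b5, Bcl6, Cish and Cyp2a4, which are known to follow growth hormone, were among the genes at its ends. These genes were chosen after their values were seen. Mup7, a major urinary protein with close copies, had 300.1 to 415 FPKM in 4 DEHP libraries and 7120.3 and 9965 FPKM in replicates 3 and 5, and in DEHP plus ethanol it had 84.6 to 980 FPKM in 5 libraries and 7419 FPKM in replicate 4. Hsd3b5, a male-specific steroid enzyme, was high in the same 3 libraries, at 41.2, 118 and 83.3 FPKM. In the rest of these 12 libraries it had 0.36 to 6.49 FPKM. Without DEHP, Hsd3b5 had 70.5 to 134 FPKM in the vehicle group and 151 to 210 FPKM in the ethanol group. Mup7 had 4074 to 14213 FPKM and 3056 to 22577 FPKM in these 2 groups.

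Bcl6, a repressor in this response, had 5.45, 22.4 and 29.1 FPKM on DEHP and 2.13, 2.7 and 23.4 with ethanol, where replicate 4 alone exceeded 3.12 FPKM (log2 change -1.55 ± 0.62, adjusted p = 0.368). Cish, an early target of the hormone, had 0.64, 0.77 and 2.08 FPKM on DEHP and 0.81, 4.21 and 7.7 with ethanol (log2 change 2.09 ± 0.60, adjusted p = 0.197). Cyp2a4, a female-biased steroid hydroxylase whose reads Cyp2a5 can share, had 9.79, 16.8 and 33.5 FPKM on DEHP and 15.4, 45.3 and 82 with ethanol (log2 change 1.42 ± 0.32, adjusted p = 0.0844). None of these 5 genes was called by edgeR over all 24 libraries, and in each the groups overlapped. Without replicate 4 of DEHP plus ethanol, Cyp2a4 (adjusted p = 0.0225) and Bcl6 (adjusted p = 0.0403) were called, and Cyp2a4 was also called without the 3 libraries with other tissue (adjusted p = 0.0356).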

How the data were processed

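Liver RNA was sequenced from 24 libraries, 6 in each of 4 groups. Per the file headers, the authors deposited an expected count (an estimated count, need not be whole) and an FPKM value for each gene. The submitters' processing notes name Cuffdiff, mm10 and GRCm38, while the aligner, the counting tool and the handling of strand are not stated there. Between 94.54 and 95.32% of listed expected counts were whole numbers, and all were rounded to whole numbers. A gene missing from a table was set to 0. Of 17537 genes, 10697 had at least 1 FPKM in at least 6 libraries and were tested.

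The main test was edgeR's quasi-likelihood F test (edgeR 4.0.16, R 4.3.3) with TMM factors and 4 group means over all 24 libraries (20 residual degrees of freedom), and p-values were adjusted by Benjamini and Hochberg over all genes tested, with a threshold of 0.05. The interaction is the log2 change with ethanol on DEHP minus that without DEHP. DESeq2 1.42.0, limma 3.58.1, other scalings, other filters, a replicate block and the removal of libraries were alternatives. The code was tested on simulated data.

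The rule for named genes took 24 listed genes, up to 12 called genes in each direction that also passed without both replicates 6 and had a mean of at least 1 FPKM in either group (predicted genes passed over), up to 4 called members of any function list with at least 3 (no list had as many), and the 6 genes with the smallest interaction p. The other called genes, list examples (the 3 smallest interaction p in each list with 4 or more interaction calls), genes with a wide spread and motifs were chosen after their values were seen. The comparison and all lists were chosen with earlier results of these data known. Results of some genes that the rule names are not reported here. Gene positions and promoter sequences are from RefSeq on GRCm38.p6. Intervals of changes cover 95%.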

Additional observations from a re-analysis of the deposited data

Results flagged for a closer look

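In 26 of 156 sets of 6 libraries examined, 1 library stood far from the other 5: its gap to the nearest, divided by the range of the set, was above 0.625. Chance gives such a library in about 1 of 20 sets if values are independent and normally distributed. That rate cannot be set against the 26 sets. The sets included genes chosen for their wide spread and marker sums that had shown RNA of another tissue. FPKM values were used without a log scale, some marker sums were very low, and all sets came from the same libraries. The 26 sets are therefore given as a description. In the DEHP group, replicate 1 stood high for neutrophil markers (summed FPKM 67.5), Kupffer cell and macrophage markers (653), T and NK cell markers (15.5), Hmox1 (13.9 FPKM), Gadd45g (4.8), Wee1 (1.82) and Cish (2.08). DEHP replicate 2 was high for Cry2 (7.3 FPKM), and DEHP replicate 4 was high for Slc25a25 (27.2) and low for Cdkn1a (20.7). DEHP replicate 5 was high for Hsd3b5 (118 FPKM). DEHP replicate 6 was high for pancreatic acinar markers (801) and pancreatic islet markers (9.22).

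With ethanol added, replicate 2 was high for B cell markers (summed FPKM 115). Replicate 3 was high for Dbp (6.88 FPKM) and Tef (14.7), low for Ppard (3.55), and the single library above 0 for islet markers (0.07). Replicate 4 was high for Hsd3b5 (83.3 FPKM), Mup7 (7419) and Bcl6 (23.4), and low for Srebf1 (55.4) and Cyp2b10 (6.42). Replicate 6 was high for skeletal muscle markers (6320), stellate cell and fibroblast markers (270) and adipocyte markers (136).

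The change with ethanol differed between the backgrounds with and without DEHP, by the edgeR interaction test, for 39 of the 65 named genes. As log2 differences, positive where the change was more positive on DEHP, these were for clock genes -4.92 (Dbp), -2.30 (Nr1d1), -1.77 (Tef), -1.74 (Wee1), -0.79 (Cry2), 0.96 (Rora), 1.06 (Nfil3), 1.55 (Arntl) and 2.91 (Npas2). Stress and chaperone genes differed by 4.65 (Cdkn1a), 1.58 (Trp53inp1), 2.50 (Gadd45g), 1.40 (Hspa5), 1.53 (Manf), 1.34 (Hyou1), 1.63 (Hsph1), 1.29 (Hspa1b) and 0.93 (Hspa8). Genes of fasting, glucocorticoid response and amino acids differed by 2.78 (Lpin1), 1.02 (Lpin2), 1.47 (G6pc), 1.55 (Angptl4), 2.49 (Pdk4), 1.43 (Sgk1), 2.53 (Zbtb16), 0.92 (Tat), 0.44 (Slc25a15) and -0.40 (Nags). Lipid and bile acid genes differed by 0.84 (Plin2), -0.80 (Lipe), 4.70 (Pnpla3), -2.43 (Cyp7a1), -0.54 (Nr1h4) and -0.74 (Klb). The others were Ppard at 2.68, Gpr146 at -1.20, Cpeb2 at 0.65, Fbxl20 at -0.60 and Chrna4 at 3.72.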

How the results depend on the processing

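The count of 13 genes called on DEHP moved by more than 1.5 times under 11 of the 16 alternatives other than single-library removals. It was 44 with DESeq2, 7 with limma on log2(FPKM + 1), 6 on log2(FPKM + 0.1), 5 after quantile normalisation, 1 with no filter on low values, 2 with the gene length trend removed, 5 with a replicate block, 2 with a replicate block and the length trend removed, 5 without both replicates 6, 8 without these and vehicle replicate 1, and 6 in a fit of the 12 libraries with DEHP. Leaving out 1 of the 24 libraries at a time gave 0 to 18, and 8 of these fits also moved the count by more than 1.5 times. The interaction count of 686 was 413 without both replicates 6 and 365 when vehicle replicate 1 was also left out, and 459 to 835 with 1 library left out. With a replicate block it was 599. Where a cause is not given by fewer libraries or more genes tested, the cause was not tested. Among the 65 named genes, no value that was called in a comparison changed sign in that comparison under an alternative. The other called genes were not all followed in this way. The 2 tested skeletal muscle markers were called in the interaction, at 6.09 and 11.55. Of these, Mylpf was at -0.59 without the 3 libraries with other tissue.

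Same-numbered libraries did not deviate together: correlations of their deviations were -0.18 to 0.19 for DEHP and DEHP plus ethanol, and 1 of 6 correlated best with its own number, so the numbers were not taken as pairs. The interaction of Cpeb2 was called in 27 of 39 alternatives, of Nags in 26, of Pdk4 in 11 and of Gadd45g in 37 (adjusted p = 0.0678 without the 3 libraries with other tissue). Depth limits genes below 1 FPKM, such as Wnk4 and Pnpla3.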
